A study of Homo sapiens with 2 samples.

Results

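The replication-dependent histone genes of the HIST1 and HIST2 clusters were examined for binding of the retinoblastoma protein Rb in 2 prostate cancer cell lines. Members are the Rb peaks whose summit lies in 1 of 3 hg19 windows: chr6:26015000-26300000 (285 kb, called the left HIST1 window here), chr6:27095000-27870000 (775 kb, the right HIST1 window) and chr1:149750000-149865000 (115 kb, the HIST2 window). The rule uses position alone and no peak height. It found 28 of 9423 peaks in VCaP and 40 of 21994 in LNCaP, 68 of 31417 in all.

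VCaP and LNCaP are established lines from prostate cancer metastases that express the androgen receptor. After 3 days of growth on 5% charcoal-stripped serum, which holds little steroid hormone, each received 10 nM dihydrotestosterone (DHT), an androgen, for 4 h. Both lines thus carry the same treatment. Rb-bound chromatin was precipitated with a mouse monoclonal antibody at passage 10 to 15 and sequenced, with 1 library per line. No untreated cells, input or repeat cultures are part of the comparison, and no difference between the lines has a replicate check. The libraries held 8691938 tags in VCaP and 3671482 in LNCaP.

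Replication-dependent histone genes supply the H1, H2A, H2B, H3 and H4 proteins that package newly made DNA. They are transcribed in S phase, and their messages end in a stem-loop in place of a poly(A) tail. Transcription takes place in the histone locus body under the coactivator NPAT, a substrate of cyclin E-dependent kinase. Rb restrains entry into S phase largely by binding E2F factors at promoters, which makes the histone clusters a set of S-phase genes to examine in an Rb map.

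In the RefSeq gene table, 55 coding HIST1 genes and 12 coding HIST2 genes were found by symbol or synonym. They comprised 6 genes for H1, 16 for H2A, 17 for H2B, 14 for H3 and 14 for H4, besides 16 pseudogenes. In gene order, the HIST1 genes formed a first run of 34 coding genes from H2AC1, a second run of 5 from H2BC11 to H2AC12, and a last run of 16 that ends with H2BC17. Between the first and second runs lay 74 other genes, of which 39 encode tRNAs, and between the second and the last 76, of which 51 encode tRNAs. Of the HIST2 genes, 11 formed 1 run from H2BC18 to H2AC21, and H3-7 stood apart from it, with 226 other genes between. The RefSeq tables are on GRCh38 and the peaks on hg19, so no peak was placed at a gene here. The runs describe the gene content only, and whether each gene of a run lies in a window was not determined.

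The promoter sequences of these genes are shown because E2F is the usual route of Rb to DNA. Of the 67 coding genes, 62 had a RefSeq promoter (GRCh38.p14), and the 250 bases before the start were searched on both strands. The E2F letters TTTGGCGC, TTTCGCGC, TTTCCCGC or TTTGCCGC occurred in 12 of the 62 (19.4%), against 2.79% of all 27305 promoters. A match was present in 5 of 15 H2A and 5 of 17 H2B promoters, and most of these are 1 stretch seen from both genes of a divergent H2A-H2B pair. These pairs are H2AC11 and H2BC11, H2AC13 and H2BC13, H2AC14 and H2BC14, and H2AC17 and H2BC17. The 12 promoters with a match therefore do not hold 12 separate sites. H3C7 was the single H3 gene with a match, and H4C7 the single H4 gene, while none of 6 H1 genes had one. By run, matches were found in 2 of 32 promoters of the first HIST1 run, 3 of 4 of the second and 7 of 14 of the last. None of the 12 HIST2 promoters held these letters. The last 110 bases before the start are printed 5′ to 3′ for the H2A, H3 and H4 genes with a match, with E2F letters and any octamer match (ATTTGCAT) in capitals.
H2AC11: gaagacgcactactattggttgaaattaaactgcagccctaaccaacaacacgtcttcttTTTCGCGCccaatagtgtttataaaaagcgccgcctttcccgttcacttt
H2AC13: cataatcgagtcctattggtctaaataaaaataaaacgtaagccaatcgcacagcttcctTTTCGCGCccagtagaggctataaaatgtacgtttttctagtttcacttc
H2AC14: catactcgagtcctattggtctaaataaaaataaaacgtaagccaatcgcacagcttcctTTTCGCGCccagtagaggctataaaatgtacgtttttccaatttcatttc
H2AC16: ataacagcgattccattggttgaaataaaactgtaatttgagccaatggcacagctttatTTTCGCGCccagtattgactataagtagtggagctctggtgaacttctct
H2AC17: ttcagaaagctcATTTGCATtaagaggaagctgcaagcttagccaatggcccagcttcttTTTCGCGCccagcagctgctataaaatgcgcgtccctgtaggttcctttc
H3C7: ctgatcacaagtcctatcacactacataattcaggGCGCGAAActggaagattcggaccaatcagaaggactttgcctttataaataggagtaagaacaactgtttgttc
H4C7: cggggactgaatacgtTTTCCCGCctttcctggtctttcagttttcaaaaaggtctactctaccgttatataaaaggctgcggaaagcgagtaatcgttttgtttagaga

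In these 5 H2A promoters the E2F letters are TTTCGCGC on the gene's own strand and begin 50 bases before the start. In H3C7 they stand on the other strand (printed as GCGCGAAA), beginning 75 bases before the start. H4C7 has TTTCCCGC, beginning 94 bases before. The octamer, the binding sequence of OCT factors best known from H2B promoters, was found in 14 of 17 H2B and 11 of 15 H2A promoters, in 1 of 12 H3 and in no H1 or H4 promoter, against 1.66% of all. The H3 match lies in the stretch of H3C4, which is the same as that of the overlapping gene H2AC7. CCAAT was found in 53 of the 62 (85.5%, against 33.04% of all), with 3 of 12 in the H4 class and every promoter of the other classes. These matches describe letters in the reference and not sites of binding.

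Rb peaks were denser in the histone windows than in the surrounding chromatin in both libraries. Pooled over the 3 windows (1175 kb), VCaP had 23.8 summits per Mb (95% Poisson interval 15.8 to 34.4, 28 peaks) against 9.59 per Mb (7.02 to 12.8, 46 peaks) in the flanks. LNCaP had 34.04 per Mb (24.3 to 46.4, 40 peaks) against 17.9 (14.3 to 22.2, 86 peaks). The flanks are the 1 Mb on either side of each window, without bases of another window, 4795 kb in all. The ratio of window to flank density was 2.48 in VCaP (exact interval 1.495 to 4.06) and 1.90 in LNCaP (1.27 to 2.79). Both intervals lie above 1, but with the LNCaP list shortened to the length of the VCaP list the ratio was 1.59 (0.791 to 3.02), and that interval takes in 1. The intervals cover counting error within 1 library only, and neighbouring peaks are not independent of each other. The pooled flanks are also not weighted by window length. Right HIST1 makes up 775 of the 1175 kb of windows, but its flanks only 1795 of the 4795 kb. These are the densest flanks in both libraries, with 15.04 peaks per Mb in VCaP and 22.3 in LNCaP. Weighting by window length would raise the flank density and lower both ratios. The weighted ratios were not computed.

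The flanks were themselves dense in peaks. Over chromosomes 1 to 22 and X, from the first to the last peak of each, there were 3.20 summits per Mb in VCaP and 7.45 in LNCaP. Flank density was thus 3.00 times the mean of the whole list in VCaP and 2.41 times in LNCaP, and window density 7.45 times and 4.57 times. Peaks covered 0.901% of the windows in VCaP (10.6 kb) and 1.31% in LNCaP (15.4 kb). In the flanks they covered 0.346% and 0.766%, and on the chromosomes as a whole 0.113% and 0.342%.

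**Figure D1:**
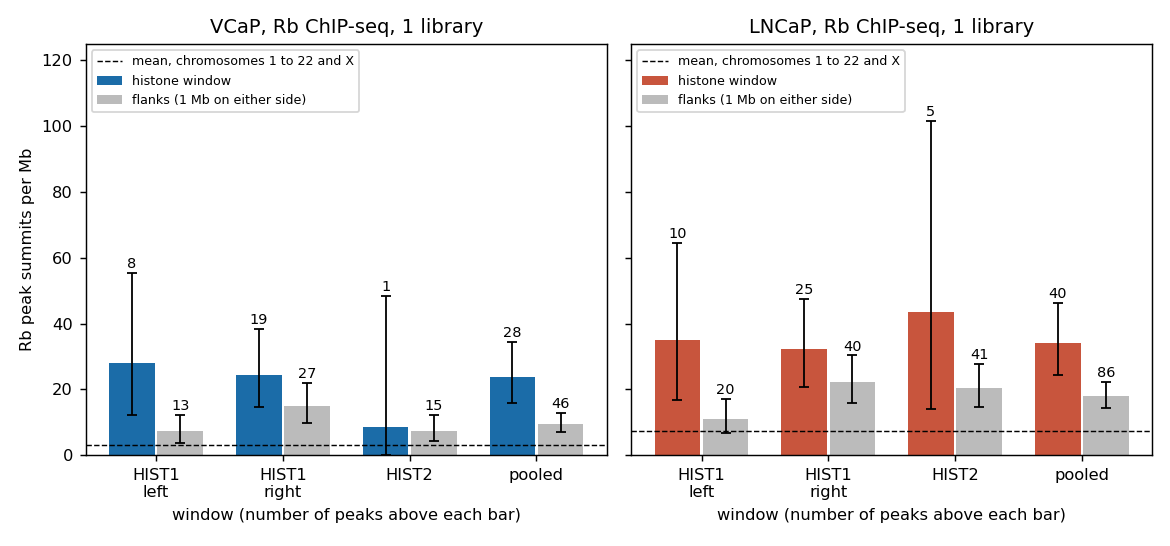
Rb peak summits per Mb (y axis) in each histone window and all windows pooled (coloured bars) and in their flanks (grey bars), for VCaP and LNCaP. Bars give the density in 1 library, error bars the exact 95% Poisson interval, the digits over each bar the number of peaks, and the dashed line the mean over chromosomes 1 to 22 and X. The left HIST1 window stands furthest above its flanks in both lines, and the HIST2 bars have the widest intervals.

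The excess over the flanks was clearest in the left HIST1 window. It held 8 VCaP peaks, 28.1 per Mb, against 13 in its flanks, 7.24 per Mb, a ratio of 3.88 (1.39 to 10.1). In LNCaP it held 10 peaks, 35.1 per Mb, against 20, 11.1 per Mb, a ratio of 3.15 (1.32 to 7.05). The flanks were unequal: the side before the window had 4.00 peaks per Mb in VCaP and 5.00 in LNCaP, and the side after it 11.3 and 18.9. With flanks of 0.5 Mb the ratios were 2.81 (0.963 to 7.90) in VCaP and 2.19 (0.890 to 5.14) in LNCaP, with intervals that take in 1. Among 10323 tiles of 285 kb along the chromosomes, 0.736% had as many as 8 VCaP summits and 1.81% as many as 10 LNCaP summits.

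The right HIST1 window was as dense in peaks, but its flanks were denser too. It held 19 VCaP peaks (24.5 per Mb) and 25 LNCaP peaks (32.3 per Mb). The flanks had 15.04 per Mb in VCaP and 22.3 in LNCaP, and the ratios of 1.63 (0.857 to 3.04) and 1.45 (0.842 to 2.45) have intervals that take in 1. With flanks of 2 Mb the ratios were 2.40 (1.31 to 4.26) in VCaP and 2.30 (1.37 to 3.78) in LNCaP. Among 3787 tiles of 775 kb, 0.475% reached the VCaP count and 1.24% the LNCaP count. Inside this window the peaks gathered in the last 175 kb in both libraries and also in the first 100 kb in LNCaP, a division chosen after the values were seen. The last 175 kb held 10 of the 19 VCaP peaks and 9 of the 25 LNCaP peaks, 57.1 and 51.4 per Mb. The first 100 kb held 5 LNCaP peaks, 50 per Mb, and 3 VCaP peaks, 30 per Mb, no more than the VCaP count in the 100 kb from 27395000 to 27495000. The 500 kb between held 6 and 11, or 12 and 22 per Mb, beside 15.04 and 22.3 in the flanks.

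The HIST2 window held 1 VCaP and 5 LNCaP peaks. The VCaP density of 8.70 per Mb (0.220 to 48.4) was near that of its flanks, 7.5 (ratio 1.16, 0.0275 to 7.54), and 24.8% of 25601 tiles of 115 kb had at least 1 VCaP summit. LNCaP had 43.5 per Mb (14.1 to 101.5) against 20.5 in the flanks (ratio 2.12, 0.654 to 5.36), and 2.21% of tiles had as many as 5. These ratios moved with the settings: without the left flank of HIST2 the VCaP ratio was 0.725 (0.0170 to 4.90), below 1, and at −log10 q of at least 5 it was 2.48 (0.0551 to 19.3), while at fold of at least 5 the LNCaP ratio was 1.12 (0.130 to 4.41). At this number of peaks neither an excess nor a shortfall was detectable. From 149784884 to 149858085 on chromosome 1, 73.2 kb, no summit of either library was called. Several HIST2 genes are near-copies of each other, so that tags of 75 bases may not be placed. In 8 of the 12 HIST2 promoters at least some stretches of 75 bases recur in the promoter of another histone gene. In 4 of these 8 every stretch does, while in H2BC18, H2BC21, H2AC20 and H2AC21 no stretch recurs. In HIST1 none of 50 promoters recurs wholly and 6 do in part. Genes whose promoter windows overlap, such as H3C4 and H2AC7, were not set against each other here, since they share 1 place in the genome. The pairs H4C14 and H4C15, H2AC18 and H2AC19, and H3C14 and H3C15 share nearly all or all of these stretches. How tags with several matches were handled is not given in the sources used here, so that absence of peaks there cannot be told apart from absence of placed tags.

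Tile counts gave the same order of windows, flanks and whole list. Of 235 tiles of 5 kb in the windows, 26 (11.1%) held a VCaP summit and 34 (14.5%) an LNCaP summit, against 44 (4.59%) and 76 (7.92%) of 959 flank tiles. Over all 589107 tiles the shares were 1.54% in VCaP and 3.46% in LNCaP. The occupied tiles made up 8 of 57 in the left HIST1 window in VCaP and 9 of 57 in LNCaP, 17 and 22 of 155 in the right one, and 1 and 3 of 23 in HIST2. Most 5 kb tiles of the histone windows therefore held no called peak in either library.

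**Figure D2:**
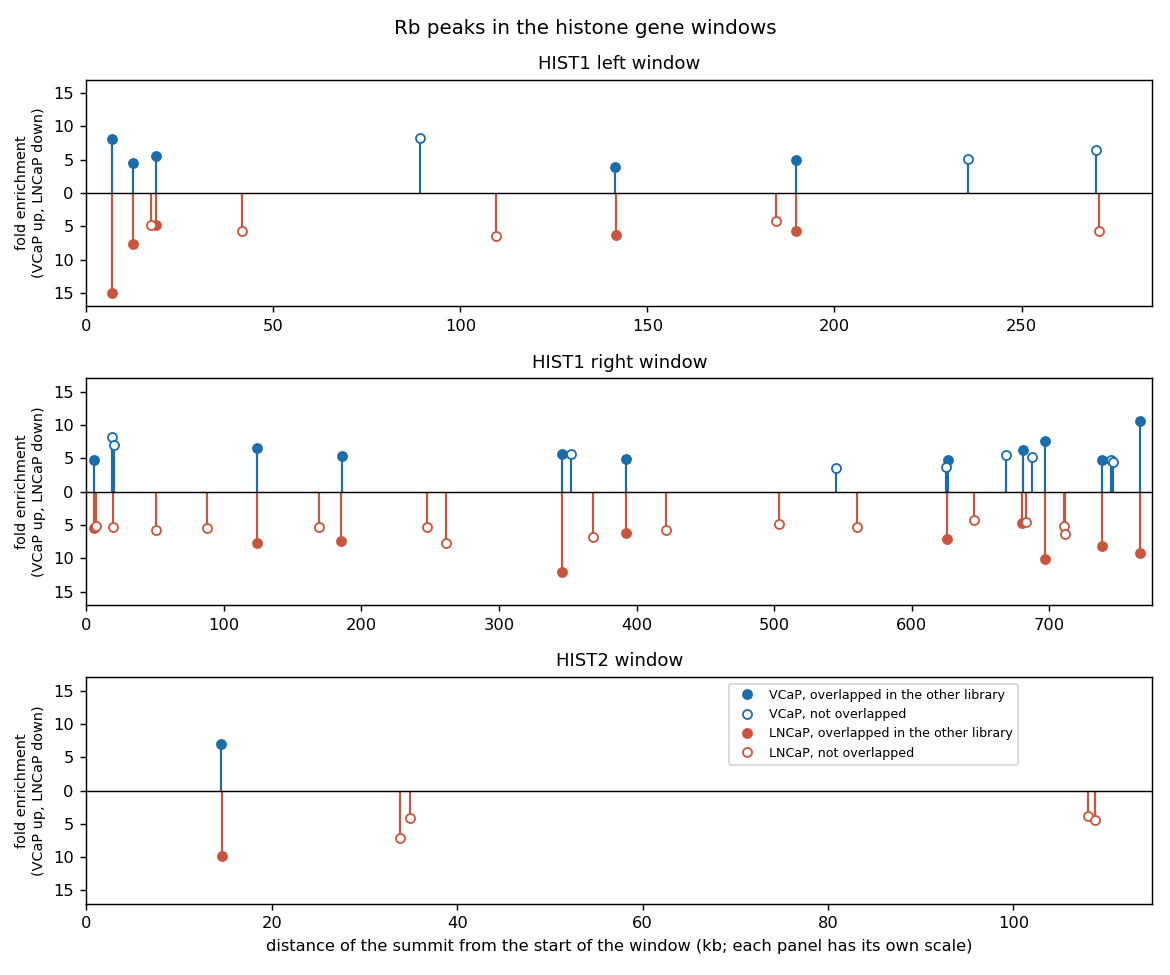
Position and fold enrichment of all 28 VCaP (upward, blue) and 40 LNCaP (downward, red) Rb peaks in the 3 histone windows; the x axis is the distance of the summit from the window start in kb, the y axis the fold enrichment over local background. Filled points are peaks overlapped by a peak of the other library and open points those that are not. Peaks of both libraries crowd in the last 175 kb of the right HIST1 window, and HIST2 has 1 site with a peak in both libraries.

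LNCaP had 1.43 times as many member peaks as VCaP (exact interval 0.860 to 2.40). The ratio was 1.87 (1.29 to 2.74) in the flanks and 2.34 (2.28 to 2.39) over chromosomes 1 to 22 and X. The interval of the windows takes in both of these values. By window the ratio was 1.25 (0.444 to 3.64) in left HIST1, 1.32 (0.696 to 2.53) in right HIST1 and 5.00 (0.559 to 236) in HIST2. The excess of LNCaP peaks in HIST2 rests on 4 peaks. All these intervals cover counting error in 1 library of each line and not the spread between cultures.

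By fold, the members were not stronger than the lists they come from, while by tags over the summit and length the VCaP members lay above their list. Median fold enrichment, the authors' ratio of tags at the summit to the local background, was 5.44 in VCaP (quartiles 4.80 and 6.68) against 5.51 in the whole VCaP list. In LNCaP it was 5.70 (5.00 and 7.21) against 6.00. A fold of at least 10 was reached by 1 of 28 VCaP members, where the list has 3.32%, and by 3 of 40 LNCaP members, where it has 8.02%. Median pileup, the number of extended tags over the summit, was 17 in VCaP (quartiles 13 and 19.5, list 13 with quartiles 11 and 17) and 12 in LNCaP (list 13). Median length was 342 bp in VCaP (list 313 bp) and 367 bp in LNCaP (list 395 bp). Below the list's median fold lay 15 of 28 VCaP and 23 of 40 LNCaP members.

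Among the members, 16 of each library had a counterpart in the other. They formed 16 pairs, called sites A to P here in order along the windows. This is 57.1% of VCaP members (37.2 to 75.5), where the whole list has 71.2%, and 40% of LNCaP members (24.9 to 56.7), where the list has 30.2%. Both intervals take in the share of the list. Shares in the flanks were 65.2% and 36.05%. With reciprocal overlap of at least 50%, 9 pairs were counted, 32.1% of VCaP and 22.5% of LNCaP members. The share of the whole list was computed for overlap of at least 1 bp only.

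In the left HIST1 window, the strongest shared peak was also the first. Site A, chr6:26021671-26022067 in the VCaP list, had 26 tags over the summit and a fold of 8.14 in VCaP, and 43 tags and a fold of 15.03 in LNCaP. Its ranks by fold were 770 of 9393 VCaP peaks and 164 of 21955 LNCaP peaks, and no other member ranked higher in LNCaP. Site B, chr6:26027405-26027651, followed 5667 bp on, with folds of 4.56 in VCaP and 7.68 in LNCaP. Site C, chr6:26033583-26033826, had 5.58 and 4.76, a higher fold in VCaP. A further LNCaP peak lay 1340 bp before the LNCaP summit of site C, so that 3 VCaP and 4 LNCaP peaks stood close together at the start of this window.

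Further along left HIST1 lay sites D and E, with folds below those of site A in both lines. Site D, chr6:26156287-26156608, had a fold of 3.93 in VCaP, among the lowest of that list (rank 9117), and 6.26 in LNCaP. Site E, chr6:26204573-26204864, had 5.02 and 5.72. Unshared VCaP peaks included chr6:26103922-26104350, with a fold of 8.27 and 19 tags, which had no LNCaP summit within 20481 bp. Another, chr6:26284849-26285116, had 6.51 and 19 tags, and an LNCaP peak with a fold of 5.71 lay 785 bp away without touching it.

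At the start of the right HIST1 window, the lines differed in the shape of the calls. Site F, chr6:27100337-27101066, had folds of 4.69 in VCaP and 5.40 in LNCaP, with summits 346 bp apart. VCaP then had a pair of strong peaks 909 bp apart, chr6:27113728-27114193 with a fold of 8.16 and 36 tags, and chr6:27114690-27115007 with 7.06 and 31 tags. LNCaP had 1 weaker peak between them, chr6:27114316-27114600, with a fold of 5.33 and 11 tags. It touched neither and so was not counted as shared. With gaps of up to 1 kb allowed, 20 VCaP members had a partner (71.4%) and 19 LNCaP members (47.5%). The share of the whole list at this setting was not computed. The list shares given for overlap of at least 1 bp are no reference for it.

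In the 500 kb middle stretch of the right window, LNCaP had the higher fold at all 4 shared sites. Site G, chr6:27218710-27219240, had 17 tags over the summit in both libraries (scaled, 1.96 in VCaP and 4.63 in LNCaP). Its folds were 6.59 in VCaP and 7.66 in LNCaP. Site H, chr6:27280473-27280737, had folds of 5.42 and 7.40. Site I, chr6:27440662-27441179, differed most of all pairs in fold, by a ratio of 2.11. In VCaP it had 17 tags (scaled, 1.96) and a fold of 5.70. In LNCaP it had 33 tags (scaled, 8.99) and a fold of 12.01. Its LNCaP peak was the longest of all members, at 810 bp. Site J, chr6:27486765-27487196, had the closest summits, 10 bp apart, with folds of 4.84 and 6.17. Also in this stretch lay the unshared LNCaP peak chr6:27356447-27356918, with a fold of 7.76 and 12 tags, and no VCaP summit within 76077 bp.

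Towards the end of the right window, shared sites followed each other closely. VCaP had the larger raw number of tags over the summit at K, L, M and O, but scaled to 1000000 tags of each library only at O. Site K, chr6:27721067-27721339, had 21 tags in VCaP and 12 in LNCaP (scaled, 2.42 and 3.27), with folds of 4.81 and 7.15. Site L, chr6:27775618-27776115, had 23 and 11 tags (scaled, 2.65 and 3.00) and folds of 6.33 and 4.68, with summits 582 bp apart, the widest distance of all pairs. Site M, chr6:27791603-27792004, had 27 and 17 tags (scaled, 3.11 and 4.63) and folds of 7.66 and 10.03. At these sites the order of the lines by raw tags and by fold was not always the same; the fold divides by each library's own local background.

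Site N, chr6:27833010-27833234, had more raw tags in LNCaP too, with 12 tags and a fold of 4.80 in VCaP against 19 tags and 8.18 in LNCaP (scaled, 1.38 and 5.18 tags). Site O, chr6:27860713-27861184, was the strongest VCaP member, with 57 tags and a fold of 10.5, rank 250 of 9393. In LNCaP it had 23 tags and a fold of 9.26, rank 2510 of 21955. Scaled to depth, these tags are 6.56 in VCaP and 6.26 in LNCaP. Site O was thus high in both libraries, as was site M. The site lies 9003 bp before the end of the window by its VCaP summit, and the nearest VCaP summit beyond the end, 876 bp after it, had a fold of 4.32. At the other border, a VCaP summit with a fold of 4.16 lay 52 bp before the window and so was no member, while the first VCaP summit inside had 4.69.

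In HIST2 the single shared site was near the start of the window. Site P, chr1:149764231-149764782, had 11 tags (scaled, 1.27) and a fold of 6.98 in VCaP. In LNCaP it had 21 tags (scaled, 5.72) and a fold of 9.76. The other 4 LNCaP peaks of HIST2 stood in 2 pairs, named because they are the whole of the LNCaP excess there. The first pair, chr1:149783638-149783924 and chr1:149784802-149785042, had folds of 7.06 and 4.06. The second, chr1:149857744-149858153 and chr1:149858561-149858862, had folds of 3.89 and 4.43. Their nearest VCaP summits were between 12536 and 20311 bp away.

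Of the 16 pairs, 13 had the greater fold in LNCaP (81.2%, 54.4 to 96.0), as in 80.8% of all 6688 overlapping pairs. The median ratio of LNCaP to VCaP fold was 1.34, ranging from 0.738 at site L to 2.11 at site I, beside 1.32 over all pairs. VCaP had the higher fold at sites C, L and O. The number of tags over the summit was the higher in VCaP in 8 pairs, in LNCaP in 7 and equal in 1. The VCaP library is the deeper, and scaled to 1000000 tags of each library LNCaP was the higher in 15 of the 16 pairs (93.8%), all but site O, as in 98.7% of all pairs. The median ratio of LNCaP to VCaP scaled tags over the summit was 2.09 at the 16 pairs, 2.31 in the flanks and 3.35 over all pairs. Summits lay a median of 99 bp apart (73 bp over all pairs). Within 200 bp lay 12 of the 16 pairs, 22 of the 30 flank pairs and 5521 of all 6688. Of the 10 members of highest fold, 6 in VCaP and 9 in LNCaP were shared, and sites A, G, M, O and P were among the 10 of both. The share among peaks of like rank in the whole lists was not computed.

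**Figure D3:**
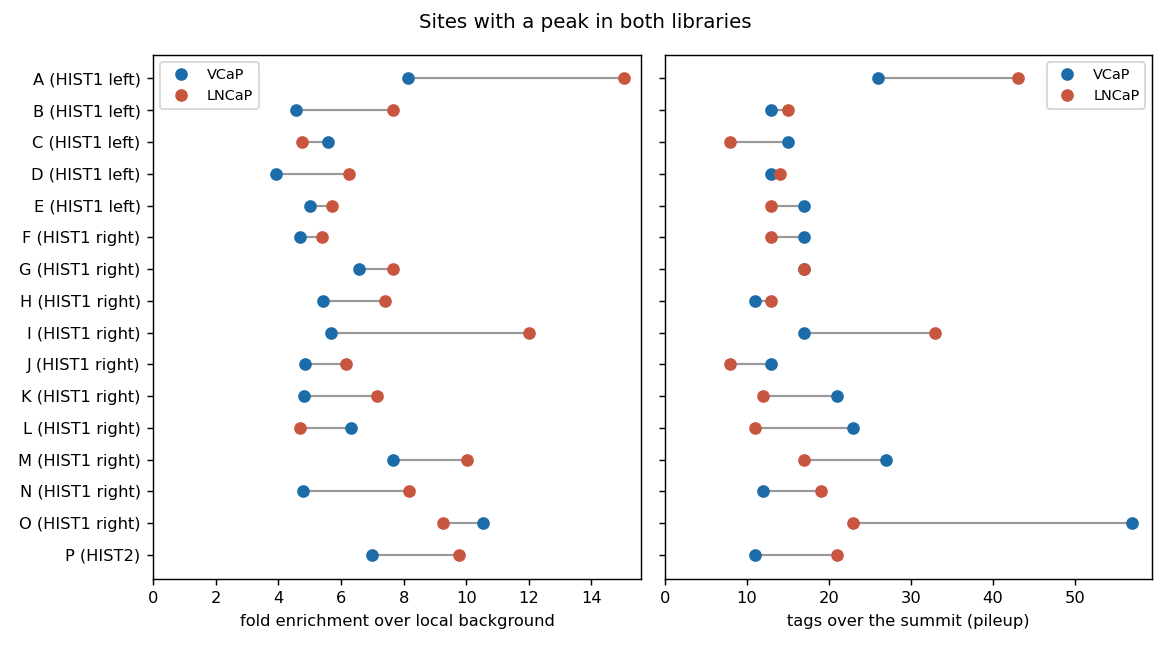
Fold enrichment over local background (left) and number of tags over the summit (right) at the 16 sites with a peak in both libraries, VCaP in blue and LNCaP in red, joined by a grey line for each site. LNCaP has the higher fold at all sites but C, L and O, and the higher number of tags at 7; at site G both libraries have 17 tags and the points coincide.

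Pooled over the windows, members without a counterpart were the weaker peaks in LNCaP and differed less from shared ones in VCaP. The 16 shared LNCaP members had a median fold of 7.53, pileup of 14.5 and length of 407 bp, and the 24 unshared ones 5.32, 11 and 286 bp. In VCaP the medians were 5.50, 17 and 399.5 bp for shared members and 5.34, 16.5 and 308.5 bp for the 12 unshared. In left HIST1 the VCaP order was the opposite, with 6.51, 19 and 429 bp for the 3 unshared members and 5.02, 15 and 292 bp for the 5 shared. The pooled order of median folds holds over the whole lists, with folds of 7.68 and 5.51 in LNCaP and 5.71 and 5.14 in VCaP. Of the unshared VCaP members, 4 had an LNCaP summit within 1 kb and 7 had none within 5 kb. Among the 24 unshared LNCaP members these counts were 3 and 19. The same shares over all unshared peaks of the lists were not computed, so these counts describe the members alone. Besides the unshared peaks named by fold, the remaining 8 in VCaP had folds from 3.55 to 5.62 with 11 to 17 tags, and the remaining 23 in LNCaP folds from 3.89 to 7.06 with 5 to 14 tags.

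Pooled over the windows, VCaP members had a nearer neighbouring summit than VCaP flank peaks, but by window this held in right HIST1 only. Pooled LNCaP members were spaced much like LNCaP flank peaks. In VCaP the median distance from a member to the nearest other summit of its library was 6747 bp, against 27145 bp in the flanks and 50648 bp over the whole list. In LNCaP it was 13740 bp, against 12392 bp in the flanks and 24592 bp over the list. The VCaP median was 6622 bp in right HIST1, but 34197 bp in left HIST1 and 106739 bp for the single HIST2 peak. For LNCaP the medians were 5498.5 bp in left HIST1, 16371 bp in right HIST1 and 1088 bp in HIST2. A neighbour within 5 kb was present for 6 of 28 VCaP members (21.4%, flanks 8.70%, whole list 8.10%) and 13 of 40 LNCaP members (32.5%, flanks 29.1%, whole list 18.4%). In VCaP all 6 of these lay in the right HIST1 window, while in LNCaP they were spread over the 3 windows, with 3 in left HIST1, 6 in right HIST1 and 4 in HIST2.

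Beside the whole list, the tag number around the member peaks was high in VCaP and not in LNCaP. In both libraries the pooled median lay above that of the flanks. In the 10 kb around each peak, computed back from the deposited fold and pileup, VCaP members had a median of 99.0 tags (quartiles 83.8 and 119.5), the VCaP flanks 78.0 and the whole VCaP list 68.0. LNCaP members had 46.5 (32.5 and 61.2), the LNCaP flanks 38.5 and the list 51.0. More tags than the list's median were found at 25 of 28 VCaP members and 19 of 40 LNCaP members. By window, the VCaP medians were 92.0 in left HIST1, 106 in right HIST1 and 32.0 at the single HIST2 peak, and the LNCaP medians 53.5, 44.0 and 52.0.

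**Figure D4:**
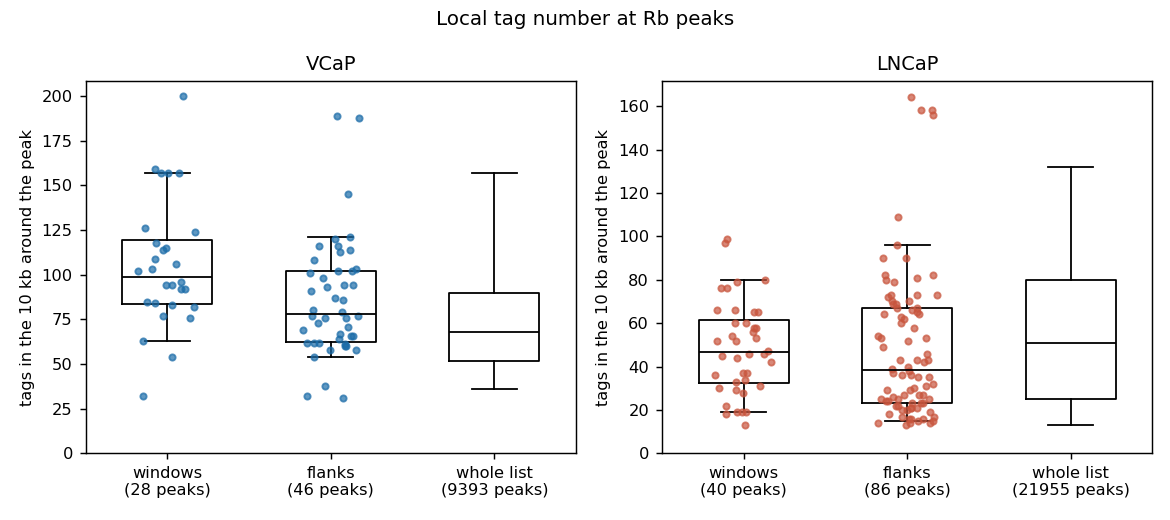
Tags in the 10 kb around each Rb peak (y axis) for peaks in the histone windows, in the flanks and in the whole list on chromosomes 1 to 22 and X, in VCaP (left) and LNCaP (right; each panel has its own scale). Boxes give quartiles and median, whiskers the 5th and 95th percentiles, and points single peaks of the windows and flanks. The VCaP windows lie above the VCaP list (medians 99.0 and 68.0), and the LNCaP windows do not (46.5 and 51.0).

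Scaled to the tags of each library, the log2 ratio of VCaP over LNCaP local tags at the 16 pairs had a median of -0.31 (quartiles -0.81 and 0.03), against -0.49 at the 30 pairs of the flanks, -0.98 at the 310 pairs of chromosome 6 and -1.24 over all pairs. It was above the median of all pairs at 15 of the 16 sites. The exception was site P in HIST2, on chromosome 1, with -1.94. The peaks' own tags are counted in these 10 kb, and both lines are aneuploid. The part of DNA copy number in these tag numbers, and in how many peaks were called in the histone windows of each line, was not tested.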

How the data were processed

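Rb ChIP-seq peak lists of 1 VCaP and 1 LNCaP library were used; groups follow the label of the line. Each list was called by the authors on its own library with MACS version 2.1.0.20140616 and no control, at a q-value limit of 0.05, with 1 tag kept per position and 75 bp tags, per the file headers. The submitters' processing notes name hg19, MACS2 and HOMER; the aligner is not given in the sources used here. The deposited pileup is a coverage signal not scaled to depth, the deposited fold enrichment a ratio to the local background, and the deposited significance −log10 p and −log10 q, all from the authors' peak caller. Deposited peak lengths are in bp.

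A peak belonged to a window by its summit. Densities carry exact Poisson intervals, density ratios exact conditional intervals and shares Clopper-Pearson intervals, all at 95%, with scipy 1.17.1; they cover counting error only. The functions were tested on simulated data. Local tags were computed back from fold and pileup; where the caller used its genome mean they are upper values. Overlap means at least 1 bp shared, and the partner of highest fold was taken. The whole list means chromosomes 1 to 22 and X. Named peaks are the 10 of highest fold in each library and all shared ones. Members, lists and tests were chosen with earlier results of these data known; E2F, octamer, CCAAT letters and the tile size of 5 kb were chosen after seeing the data. Genes with a peak at the promoter were planned but not computed, since the annotation given is on another build. No test between lines was made, and the intervals of the line ratios cover counting error only.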

Additional observations from a re-analysis of the deposited data

How the results depend on the processing

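Window density stayed above flank density, pooled, under all 10 alternatives in VCaP (ratios 2.03 to 3.23) and all 12 in LNCaP (1.53 to 2.33). These alternatives were stricter limits on −log10 q and fold, peak intervals in place of summits, flanks of 0.5 and 2 Mb, lists of equal length (LNCaP), and, added after seeing the data, neighbouring peaks within 1 kb counted as 1, the left flank of HIST2 left out, and each window left out. The VCaP interval lay above 1 in each. None of these alternatives weighted the flanks by the length of their windows. A fold of at least 10 gave no pooled VCaP ratio, since no flank peak reached it. The LNCaP interval took in 1 with lists of equal length and with fold of at least 10 (1.53, 0.261 to 6.38). In left HIST1 the LNCaP interval also took in 1 at fold of at least 5 (2.59, 0.909 to 6.58), fold of at least 10 and lists of equal length, and both lines' intervals with flanks of 0.5 Mb. With fold of at least 10 the LNCaP ratio was 4.63 in right HIST1 (2 peaks against 1) and 0 in HIST2 (0 against 6), too few peaks to compare. The HIST2 ratio ranged from 0.725 (left flank left out) to 2.48 (−log10 q of at least 5) in VCaP, and its lowest LNCaP value above 0 was 1.12 (fold of at least 5). At −log10 q of at least 5 the left HIST1 ratio in VCaP was 6.30 (1.68 to 23.6). Reciprocal overlap of 50% lowered the shared members to 32.1% in VCaP and 22.5% in LNCaP. Summits within 200 bp gave 42.9% and 30%. These settings were run on the members only, and the shares of the whole lists under them were not computed. Keeping flank bases of another window was not run for the pooled ratio, and alternatives on promoters were not run. No paired analysis was possible because each line has 1 library. Precision is limited by the 28 and 40 member peaks of 1 library each.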
